A study of Arabidopsis thaliana with 17 samples.

Results

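The coat of a young Arabidopsis seed was compared between its chalazal end, where the seed joins the mother plant, and the rest of the coat, called general seed coat in the sample labels. The comparison used the 2 chalazal and the 2 general seed coat arrays, 4 of the 17 arrays of the series. It covered all 22746 probe sets that are not array controls, and the functions on each side were read from the genes that carry a name. A probe set named 1 gene alone for 13355 genes, of which 1583 have a name other than a locus number. Both groups were Ws-0 plants with no treatment, 38 to 46 days old and grown in continuous light. Siliques measured 1.1 to 1.4 cm, and compartments were cut by laser from paraffin sections of 5 or 7 µm, from seeds whose globular embryo measured 24 to 32 µm. RNA was amplified from 2 to 4 ng and hybridised to Affymetrix ATH1 arrays. Arrays of a group are named biological replicates, but nothing ties a capture to a seed or plant. The p-values therefore measure spread between arrays of a group only. That spread was pooled over all 17 arrays of the 8 groups, not taken from the 4 seed coat arrays alone.

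The seed coat grows from the integuments of the ovule and is tissue of the mother plant. At its chalazal end the vascular strand of the mother ends, and sugars, amino acids and hormones leave the phloem there and pass on towards endosperm and embryo. The rest of the coat encloses the seed and makes flavonoid pigments, mucilage and thickened walls as the seed matures. SWEET proteins carry sugars across membranes down their gradient, and cytokinin and auxin are hormones that steer growth of the coat and of the seed within it. The comparison asks which transcripts separate the supply end of the coat from its enclosing part.

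Levels are array intensities on a linear scale, and where values of single arrays are given, replicate 1 comes before replicate 2. Differences are chalazal minus general, on the scale log2(intensity + 31), with their standard error, and a probe set was called where the adjusted p of limma was below 0.05. An array's background limit was the highest of 27 bacterial control probe sets; it was 67.9 and 96.4 on the chalazal arrays and 108.7 and 60.3 on the general ones. Above it lay 64.2% and 58.5% of the probe sets in chalazal and 59.9% and 66.0% in general seed coat. Folds are ratios of geometric mean intensities, written as "at least" where the dimmer group had a value at or under the limit, for which the limit then stood in. Such a bound can lie well under the difference on the log2 scale. The 3'/5' signal ratio of GAPDH, used to judge RNA quality, was 4.67 and 7.73 on the chalazal and 5.86 and 4.73 on the general arrays, so the groups overlapped. Across probe sets, which are no independent replicates, r was 0.931 within chalazal, 0.928 within general, and 0.809 to 0.817 between the groups. In captured tissue, fewer cells of a type and less RNA per cell cannot be told apart.

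The chalazal coat was the higher one for 783 probe sets (3.44% of those tested) and the general coat for 804 (3.53%), which makes 1587 in all (6.98%). The arrays of the groups did not overlap for 51% of all probe sets, called or not. Differences over 10-fold, bounds included, were measured for 206 of the calls in chalazal and 189 in general seed coat. Of the 13355 genes named alone, 436 were called higher in the chalazal coat (3.26%) and 385 in the general coat (2.88%), 6.15% together. Among genes with a name, 64 were called higher in the chalazal coat (4.04%) and 78 in the general coat (4.93%), 8.97% together, and gene families are read against these shares. The median difference of all probe sets was -0.05. Named genes that belong to no family or list, and a family's called genes beyond the first 4 on a side, were chosen after their values were seen. With 1 of the 4 arrays left out, 787 to 883 probe sets were called, and 536 of the 1587 kept the call in all 4 of those fits.

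Sugar carriers and an enzyme of sucrose synthesis were among the genes called at either end of the coat. SWEET10, a sugar efflux carrier, stood at 7073 and 5967 in chalazal and 47.2 and 6.01 in general seed coat, at least 80.3-fold higher (log2 difference 6.92 ± 0.69, adjusted p = 5.6e-08). SWEET4, a hexose carrier, stood at 1200.2 and 1777 against 20.1 and 2.13 (at least 18-fold, adjusted p = 6.7e-06). ATSPS4F, a sucrose phosphate synthase, which makes sucrose, was at 9884 and 8593 in chalazal and 241 and 203 in general seed coat, and was 41.6-fold higher (log2 difference 5.19 ± 0.56, adjusted p = 2.6e-07). All 3 genes were high on both chalazal arrays and their groups lay far apart. Outside the chalazal coat ATSPS4F reached no more than 204 ± 97.1 in a captured endosperm or embryo compartment (chalazal endosperm, mean ± SD, n = 3), and whole seed held 1462 ± 244 (n = 2). Of 19 sugar transporters measured, SWEET10 and SWEET4 were higher in chalazal seed coat, 4 were higher in general seed coat and 13 were not called (median log2 difference -0.08).

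Another 4 sugar carriers were called higher in general seed coat. SWEET1, a glucose carrier, measured 641 and 1013 in general seed coat and 7.17 and 5.32 in chalazal, with both chalazal values under the limit (at least 9.96-fold higher in general, log2 difference -4.49 ± 0.64, adjusted p = 1.9e-05). TMT1, which loads sugar into the vacuole, measured 589 and 373 against 19.3 and 67.5 (adjusted p = 0.0128), and SFP2, a sugar carrier of the ERD6-like group, 1810.5 and 1204 against 254 and 192 (6.69-fold, adjusted p = 0.0145). SWEET2, a vacuolar carrier, came close to the background, at 142 and 138 against 33.4 and 4.15 (adjusted p = 0.0491). The vacuolar carriers TMT1 and SWEET2 thus lay on the general side, while TMT2, with -0.27, TMT3 (0.03), SWEET16 (-0.40) and SWEET17 (0.21) on the log2 scale were not called. SWEET11, a phloem sucrose carrier, was not above the limit on any of the 4 arrays. Outside the sugar carriers, PWD (AT4G24450), named for a kinase of glucans, was higher in chalazal seed coat at 502 and 603 against 55.8 and 166 (adjusted p = 0.0329). DPE1, a plastid enzyme that rebuilds glucose chains, was higher in general seed coat at 2372 and 3256 against 522 and 566 (5.11-fold, adjusted p = 0.00419). SWEET10, SWEET4, ATSPS4F and SWEET1 kept their calls with each of the 4 arrays left out in turn. Leaving out 1 array ended the call of TMT1 without chalazal array 1, general array 1 or general array 2 (adjusted p up to 0.18), of SFP2 and SWEET2 in each of the 4 fits (adjusted p up to 0.165 and 0.423 respectively), of PWD without chalazal array 1, chalazal array 2 or general array 1 (adjusted p up to 0.388) and of DPE1 without chalazal array 1 or general array 2 (adjusted p up to 0.0857). Calls also lapsed with no offset (SFP2, SWEET2, PWD and DPE1), quantile normalization (SWEET2), a common 75th percentile (SWEET2) and a fit on the 4 seed coat arrays alone (SWEET2).

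**Figure D1:**
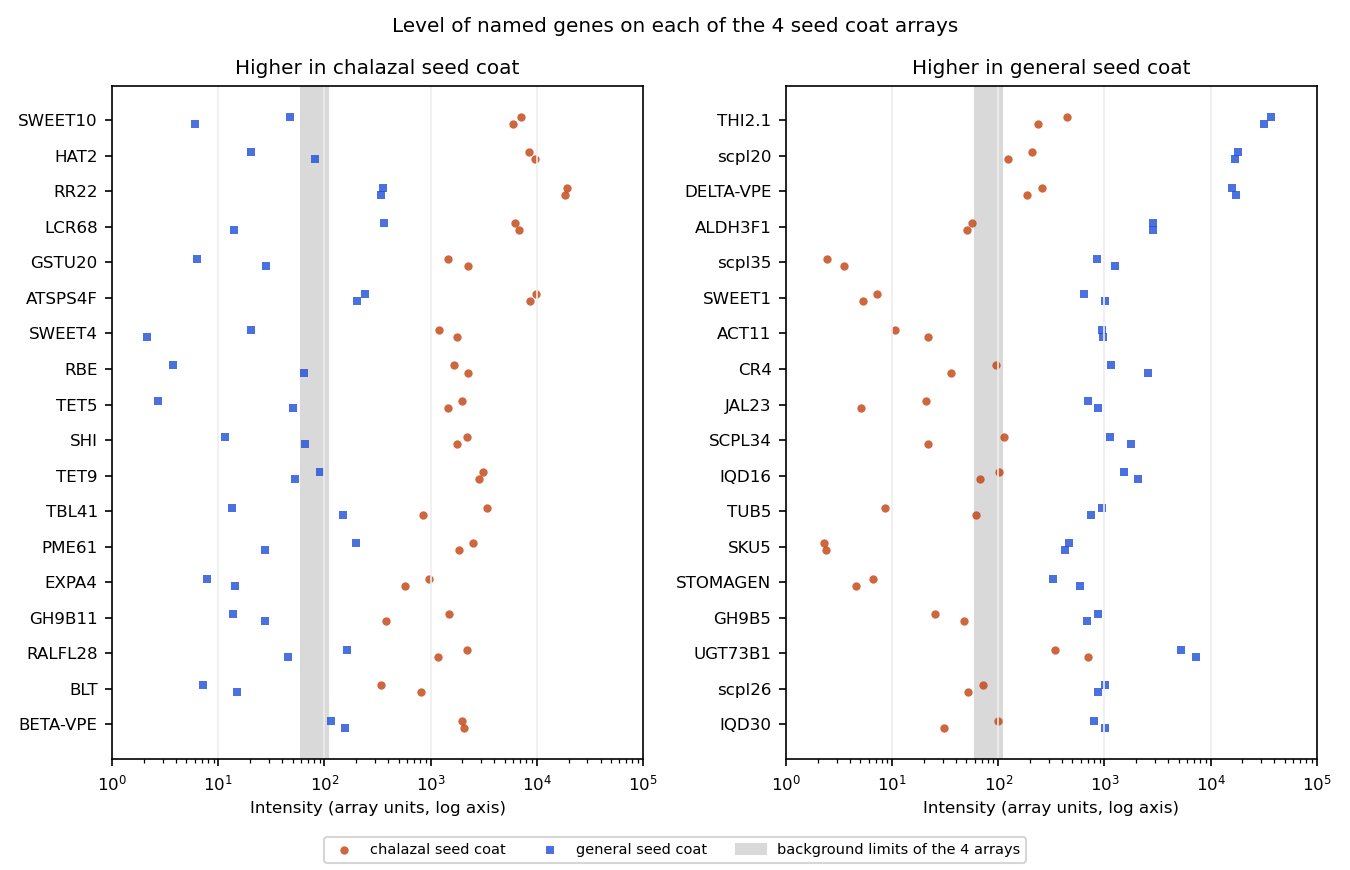
Intensity (log axis) of the 18 named genes with the largest log2 difference on each side, among those called with each of the 4 arrays left out, on every seed coat array; the grey band spans the background limits of the 4 arrays, 60.3 to 108.7. In both panels the groups do not overlap for any gene, which was largely set by the choice of called genes. The dimmer group often lies within or below the band.

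RR22, a response regulator of the cytokinin relay, stood at 19299 and 18331 in chalazal and 360.0 and 342 in general seed coat, 53.6-fold higher (log2 difference 5.62 ± 0.51, adjusted p = 1.3e-08), with both arrays of each group close together. It was the only called member of 6 cytokinin response regulators measured. Of the others, RR23 was at 325 and 138 against 29.4 and 89.2 (adjusted p = 0.128) and RR16, RR18, RR19 and ARR15 between -0.13 and 0.69 on the log2 scale. In other captured compartments RR22 averaged at most 208 ± 115 (micropylar endosperm, SD, n = 2).

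For auxin, 3 of 9 genes of synthesis and conjugation were higher in chalazal seed coat and 0 in general (median log2 difference 0.77). YUC6, which catalyses the last step of auxin synthesis, measured 1289 and 1364 in chalazal and 204 and 211 in general seed coat (6.39-fold, adjusted p = 0.0218). GH3.9, of the family that joins auxin to amino acids, measured 453 and 452 against 45.8 and 8.12 (adjusted p = 0.00129), and WES1, another such enzyme, 316 and 229.7 against 3.54 and 34.0 (adjusted p = 0.00723). An enzyme of synthesis and a pair of conjugating enzymes were thus high on the same arrays. YUC2, YUC4, YUC11, GH3.1, GH3.3 and GH3.17 were not called, and their differences ran from -0.13 to 0.86. JMT, which makes the methyl ester of jasmonic acid, stood at 297 and 332 in chalazal and at 3.34 and 2.01, under the limit, in general seed coat (log2 difference 3.36 ± 0.52, adjusted p = 5.5e-05). RR22 and JMT kept their calls with each of the 4 arrays left out in turn. Leaving out 1 array ended the call of YUC6 in each of the 4 fits (adjusted p up to 0.135), of GH3.9 without general array 2 (adjusted p = 0.0568) and of WES1 without chalazal array 1 or general array 1 (adjusted p up to 0.147). Other settings that ended a call were no offset (YUC6, GH3.9 and WES1).

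Transcription factors of organ growth followed. HAT2, a homeodomain-leucine zipper protein known as an auxin-responsive gene, stood at 8419 and 9682 in chalazal and 20.4 and 82.1 in general seed coat, at least 95.6-fold higher (log2 difference 6.89 ± 0.78, adjusted p = 5.6e-07). RBE, a zinc finger protein known from petal development, stood at 1659 and 2278 against 3.70 and 64.5 (at least 23.2-fold, adjusted p = 2.7e-05). SHI, a zinc finger protein of the family that acts on auxin synthesis genes in floral organs, stood at 2186 and 1786 against 11.6 and 65.8 (at least 23.4-fold, adjusted p = 4.1e-06). The 3 genes were near or under the background limit in general seed coat, and SHI was also measured in the embryo proper, at 744 ± 21.4 (SD, n = 2). INO, a YABBY factor needed for the outer integument of the ovule, had the opposite pattern, at 693 and 719 in general and 53.2 and 71.6 in the chalazal coat (log2 difference -2.99 ± 0.70, adjusted p = 0.00627). Of 23 such factors measured, 3 were higher in the chalazal coat, 1 in the general coat and 19 were not called (median log2 difference 0.47).

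MADS-box, bZIP and bHLH factors gave few calls, all on the chalazal side. AGL18 stood at 8307 and 10888 in chalazal and 2305 and 2511 in general seed coat (3.95-fold, adjusted p = 0.0133), and AGL42 at 266 and 303 against 9.84 and 2.02 (adjusted p = 0.00147). AGL18 is known as a repressor and AGL42 as a promoter of flowering, and they were the called members of 15 MIKC genes. In chalazal endosperm AGL42 measured 881 ± 460.2 and AGL18 69.9 ± 62.3 (SD, n = 3). BZIP53, known from seed maturation and amino acid metabolism, stood at 4390.4 and 3566 against 1359 and 1147 (3.17-fold, adjusted p = 0.0137), and bZIP69 at 3332 and 3553 against 1041 and 1342 (adjusted p = 0.0416), 2 of 23 bZIP genes. Of 21 bHLH genes, bHLH104, a regulator of iron balance, was called, at 2898 and 3522 against 622 and 1098 (3.86-fold, adjusted p = 0.0101). With each of the 4 arrays left out in turn, HAT2, RBE, SHI and AGL42 kept their calls. Calls were lost by leaving out 1 array for INO without chalazal array 1, general array 1 or general array 2 (adjusted p up to 0.0766), for AGL18, BZIP53 and bZIP69 in each of the 4 fits (adjusted p up to 0.159, 0.148 and 0.288 respectively) and for bHLH104 without chalazal array 1, chalazal array 2 or general array 1 (adjusted p up to 0.193). Among the other settings, calls ended with no offset (INO, AGL18 and bZIP69) and no intensity trend (BZIP53 and bZIP69).

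Autophagy genes, which send cell contents to the vacuole for breakdown, were higher in chalazal seed coat for 3 of 11 measured and in general for 0 (median log2 difference 1.17). ATG101, a subunit of the complex that starts autophagy, stood at 1899.9 and 3338 in chalazal and 156 and 297 in general seed coat (11.7-fold, log2 difference 3.37 ± 0.58, adjusted p = 2.2e-04). APG8A, an ATG8 protein that coats the autophagosome, stood at 4677 and 3546 against 738 and 639 (5.93-fold, adjusted p = 1.3e-04). ATG8F stood at 10804 and 12313 against 6292 and 4468, a smaller step of 2.18-fold (adjusted p = 0.029). For all 3 the lowest chalazal value lay above the highest general one, but the groups did not overlap for 51% of all probe sets. Of the 8 that were not called, ATG8E came nearest, with log2 difference 2.05 ± 0.69, adjusted p = 0.0754. ATG8B, ATG8C, ATG8D, ATG8G and APG8H had differences of 0.91 to 1.35 (adjusted p from 0.137 to 0.32), and ATG8H and ATG3 of -0.26 and -0.44.

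Vacuolar processing enzymes, cysteine proteases that mature or break down proteins in the vacuole, were split between the coat ends. BETA-VPE, known from storage protein processing in seeds, stood at 1959 and 2082 in chalazal and 116 and 157 in general seed coat, 14.9-fold higher (log2 difference 3.62 ± 0.71, adjusted p = 0.00104). DELTA-VPE, known from the programmed death of cell layers in the young seed coat, stood at 15966 and 17259 in general and 259 and 187 in the chalazal coat, 75.5-fold higher in general (log2 difference -6.05 ± 0.51, adjusted p = 3.5e-09). The genes had opposite directions. GILT, named for a thiol reductase, was higher in the general coat, at 86072 and 61087 against 10583 and 6226 (8.93-fold, adjusted p = 0.00243). CP1, a cysteine protease, was low, at 294 and 219 in chalazal against 58.5 and 7.11 (adjusted p = 0.0246). ATG101, APG8A, BETA-VPE and DELTA-VPE kept their calls whichever of the 4 arrays was left out. The call was lost by leaving out 1 array for ATG8F in each of the 4 fits (adjusted p up to 0.315), for GILT without chalazal array 2 or general array 1 (adjusted p up to 0.0636) and for CP1 without chalazal array 1, chalazal array 2 or general array 2 (adjusted p up to 0.333). Of the settings tried besides, those that ended a call were no intensity trend (ATG8F), no offset (CP1) and a fit on the 4 seed coat arrays alone (CP1).

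Serine carboxypeptidase-like proteins, peptidases of which some instead transfer acyl groups onto plant metabolites, gave the largest family count of the comparison on the general side. Of 29 measured, 7 were higher in general seed coat, 1 in chalazal and 21 were not called, and the family's median was near that of all probe sets (median log2 difference -0.18). scpl20 stood at 18039 and 17172 in general and 207 and 124 in the chalazal coat, 110-fold higher (log2 difference -6.52 ± 0.57, adjusted p = 6.6e-09). scpl35 stood at 852 and 1264 against 2.40 and 3.53, with both chalazal values under the limit (at least 12.8-fold, adjusted p = 1.4e-06). SCPL34 stood at 1131 and 1798 against 113 and 21.9 (adjusted p = 1.3e-04) and scpl26 at 1010.0 and 877 against 71.9 and 51.6 (adjusted p = 1.7e-04). These 2 genes were as bright in peripheral endosperm, at 1653 ± 359.7 and 1099 ± 12.9 (SD, n = 2). scpl42, scpl29 and scpl25 were 4.70-fold to at least 7.45-fold higher in general seed coat (adjusted p from 0.0132 to 0.0278). scpl31 was the member with the opposite direction, at 525 and 249 in chalazal and 29.4 and 56.3 in general seed coat (adjusted p = 0.0346).

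Subtilases, serine proteases of the cell wall space, gave 2 calls in chalazal and 1 in general seed coat, of 10 measured. ARA12, needed for mucilage release from seed coat cells, stood at 4966 and 6619 in general and 511 and 838 in the chalazal coat (8.76-fold, adjusted p = 0.00149), and whole seed held 19315 ± 2194 (SD, n = 2). SBT4.13 stood at 1481 and 132 in chalazal and 2.73 and 12.0 in general seed coat (adjusted p = 0.00293), with the first chalazal array far above the second. In chalazal endosperm it measured 27655 ± 1886 (SD, n = 3), and the part of that tissue in the call was not tested. ATSBT5.2 was low, at 96.6 and 309 against 8.15 and 9.15 (adjusted p = 0.0439). scpl20, scpl35, SCPL34, scpl26 and ARA12 kept their calls in all 4 fits that left out an array. Leaving out an array ended the call of scpl42 and ATSBT5.2 without chalazal array 2, general array 1 or general array 2 (adjusted p up to 0.208 and 0.434 respectively), of scpl29 and scpl31 in each of the 4 fits (adjusted p up to 0.201 and 0.315 respectively), of scpl25 without chalazal array 1, chalazal array 2 or general array 1 (adjusted p up to 0.4) and of SBT4.13 without chalazal array 1 (adjusted p = 0.239). Calls also lapsed with no offset (scpl42, scpl29, scpl25, scpl31, ARA12 and ATSBT5.2), quantile normalization (scpl31 and ATSBT5.2), no intensity trend (ATSBT5.2), a fit on the 4 seed coat arrays alone (ATSBT5.2) and the replicate block (ATSBT5.2).

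Genes of the cell wall were called on both sides. Expansins, which loosen walls during growth, were higher in chalazal seed coat for 3 of 18 and in general for 0 (median log2 difference 0.05). EXPA4 stood at 964 and 572 in chalazal and 7.84 and 14.2, under the limit, in general seed coat (at least 9.18-fold, log2 difference 4.21 ± 0.73, adjusted p = 2.5e-04). EXLA3 stood at 783 and 231 against 73.8 and 6.31 (adjusted p = 0.0037) and EXPA15 at 502 and 801 against 26.2 and 209 (adjusted p = 0.0442). EXLA1, an expansin-like gene, did not pass the test, at 14663 and 18658 in chalazal and 14617 and 15748 in general seed coat (0.12 on the log2 scale, adjusted p = 0.97). Of 7 pectin enzymes, PME61, a pectin methylesterase, was at 2516 and 1873 in chalazal and 199 and 27.3 in general seed coat (at least 19.8-fold, log2 difference 4.25 ± 0.68, adjusted p = 9.6e-05). ADPG1, a polygalacturonase of dehiscence zones, was at 226 and 193 against 5.85 and 46.9 (adjusted p = 0.0464). GAUT15, of the family that builds pectin, was higher in general seed coat at 1042 and 737 against 162 and 124 (6.18-fold, adjusted p = 0.0269). Thus an esterase and a hydrolase of pectin were called in the chalazal coat and a gene of pectin synthesis in the general coat.

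Of 15 endoglucanases of family GH9, 3 were higher in the chalazal coat and 1 in the general coat (median log2 difference 0.02). GH9C2 stood at 588 and 562 in chalazal and 70.5 and 24.8 in general seed coat (at least 7.1-fold, adjusted p = 0.00453), and it averaged no more than 54.8 ± 21.5 in the captured endosperm and embryo compartments (peripheral endosperm, SD, n = 2). GH9B11 stood at 1507 and 384 against 13.9 and 27.6 (adjusted p = 2.6e-05) and GH9B17 at 3031 and 456 against 305 and 180.3 (adjusted p = 0.0204). For these latter genes the first chalazal array was well above the second, and chalazal endosperm held 33881 ± 7718 and 37541 ± 2199.9 (SD, n = 3); the part of that tissue was not tested. GH9B5 stood at 878 and 687 in general and 25.2 and 47.7, under the limit, in the chalazal coat (at least 9.6-fold, adjusted p = 4.8e-04). EXGT-A3, 1 of 10 xyloglucan endotransglucosylases and the called one, was at 11006 and 8511 in general and 1879 and 1881 in the chalazal coat (5.15-fold, adjusted p = 0.00123).

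TBL proteins, of the family that adds acetyl groups to wall polysaccharides, were called higher in general seed coat for 5 of 23 and in chalazal seed coat for 2 (median log2 difference -0.57). TBL25 stood at 1429.7 and 1035 in general and 108 and 124 in the chalazal coat (10.5-fold, log2 difference -3.08 ± 0.61, adjusted p = 0.00106), TBL45 at 894 and 1820.4 against 51.1 and 155 (adjusted p = 9.9e-04) and TBL26 at 843 and 1963 against 192 and 166 (adjusted p = 0.0085). TBL30 was at least 5.70-fold higher there and TBL37 at least 4.88-fold. TBL40 was at 1117 and 673 in chalazal and 176 and 154 in general seed coat (5.27-fold, adjusted p = 0.0374). TBL41 was at 3375 and 854 against 13.4 and 149 (adjusted p = 2.5e-06), with the first chalazal array higher, and measured 43783 ± 4439 in chalazal endosperm (SD, n = 3). XEG113, which adds arabinose to extensins, wall glycoproteins, was higher in general seed coat at 1622 and 1227 against 303 and 235 (5.29-fold, adjusted p = 0.0137). SKU5, a wall-anchored protein of directional growth, was at 463 and 428 in general and 2.26 and 2.38 in the chalazal coat (adjusted p = 1.4e-04). Of the wall genes, EXPA4, PME61, GH9B11, GH9B5, EXGT-A3, TBL25, TBL41 and SKU5 kept their calls with each array left out in turn. Calls of wall genes were lost by leaving out 1 array for EXLA3 without chalazal array 1 or general array 2 (adjusted p up to 0.149), for EXPA15 without chalazal array 1, chalazal array 2 or general array 1 (adjusted p up to 0.559), for ADPG1, GAUT15, TBL30, TBL40 and XEG113 in each of the 4 fits (adjusted p up to 0.42, 0.226, 0.224, 0.299 and 0.151 respectively), for GH9C2 and TBL45 without general array 2 (adjusted p up to 0.101 and 0.0519 respectively), for GH9B17 without chalazal array 1, general array 1 or general array 2 (adjusted p up to 0.628), for TBL26 without chalazal array 1, chalazal array 2 or general array 2 (adjusted p up to 0.192) and for TBL37 without chalazal array 2, general array 1 or general array 2 (adjusted p up to 0.335). Other settings that ended a call were no offset (EXLA3, EXPA15, ADPG1, GAUT15, GH9C2, GH9B17, GH9B5, TBL45, TBL26, TBL30, TBL37, TBL40 and XEG113), a fit on the 4 seed coat arrays alone (EXLA3, EXPA15, ADPG1 and GH9B17), quantile normalization (EXPA15 and ADPG1), no intensity trend (EXPA15 and GH9B17) and the replicate block (ADPG1).

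Tetraspanins, membrane proteins that gather others into patches, were higher in chalazal seed coat for 3 of 15 and in general for 1 (median log2 difference -0.12). TET5 stood at 1959 and 1457 in chalazal and 2.71 and 50.6 in general seed coat (at least 20.9-fold, log2 difference 5.04 ± 0.69, adjusted p = 9.9e-06). TET9 stood at 3106 and 2867 against 90.1 and 52.5 (at least 36.9-fold, adjusted p = 1.2e-06) and TET8, known from plant exosomes, at 2604 and 3072 against 859 and 586 (3.99-fold, adjusted p = 0.00504). TET8 and TET9 were also found in chalazal endosperm, at 8658 ± 1939 and 1169 ± 318 (SD, n = 3), while TET5 averaged no more than 36.7 ± 23.8 in a captured endosperm or embryo compartment (peripheral endosperm, n = 2). TET10 was at 316 and 314 in general and 25.4 and 77.4 in the chalazal coat (adjusted p = 0.0182).

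Small secreted peptides differed by member. LCR68, a defensin-type peptide, stood at 6214 and 6838 in chalazal and 367 and 14.0 in general seed coat (at least 43.8-fold, log2 difference 5.61 ± 0.68, adjusted p = 1.6e-06), and the general arrays differed from each other across the limit. THI2.1, a thionin with antimicrobial action, stood at 37269.7 and 31626 in general and 441 and 238 in the chalazal coat (106-fold, adjusted p = 1.5e-06). Of 17 defence peptides, those 2 and LCR24 were called, and LCR24, at 712 and 243 in general and 64.5 and 55.3 in the chalazal coat (adjusted p = 0.0017), was far brighter in micropylar endosperm, at 103624 ± 55949.9 (SD, n = 2). The part of that tissue was not tested. Of 11 RALF-like peptides, a family of growth signals, RALFL32 was at 1097 and 1788 in chalazal and 93.5 and 123 in general seed coat (at least 12.1-fold, adjusted p = 0.00412). RALFL28 was at 2214 and 1174 against 162 and 45.7 (adjusted p = 8.3e-05) and at 28161 ± 873 in chalazal endosperm (SD, n = 3). RALFL24 was higher in general seed coat, at 368 and 525 against 134 and 7.61 (adjusted p = 0.0399). STOMAGEN, a peptide that raises stomatal number in leaves, stood at 324 and 587 in general and 6.59 and 4.55 in the chalazal coat (at least 5.39-fold, adjusted p = 9.3e-04).

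Receptor kinases and polarity genes outside these families were also called. EMS1, the receptor kinase that sets tapetum fate in anthers, stood at 2979.5 and 3391 in chalazal and 324 and 246 in general seed coat (11.3-fold, log2 difference 3.36 ± 0.67, adjusted p = 0.00119). CR4, a receptor kinase of epidermal layers also known as ACR4, stood at 1160.2 and 2591 in general and 95.8 and 35.9 in the chalazal coat (at least 18-fold, adjusted p = 1.8e-04), and at 2910.1 ± 1162 in embryo proper (SD, n = 2). The pair had opposite directions. OPS, a polarity protein needed for phloem to form, was at 620.1 and 507 in chalazal and 57.4 and 12.5 in general seed coat (at least 6.92-fold, adjusted p = 0.00279). BLT, known from trichome branching, was at 344 and 816 against 7.22 and 15.1 (at least 6.54-fold, adjusted p = 8.0e-04). TET5, TET9, LCR68, THI2.1, RALFL28, STOMAGEN, EMS1, CR4 and BLT kept their calls with any of the 4 arrays left out. By leaving out 1 array, calls were lost for TET8 without chalazal array 2 or general array 2 (adjusted p up to 0.103), for TET10 without chalazal array 1, general array 1 or general array 2 (adjusted p up to 0.25), for LCR24 without general array 1 (adjusted p = 0.119), for RALFL32 without chalazal array 2 or general array 1 (adjusted p up to 0.0793), for RALFL24 without chalazal array 2, general array 1 or general array 2 (adjusted p up to 0.547) and for OPS without general array 2 (adjusted p = 0.0796). Among the other settings, calls ended with a fit on the 4 seed coat arrays alone (TET10, LCR24 and RALFL24), no offset (RALFL32, RALFL24 and EMS1) and quantile normalization (RALFL24).

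**Figure D2:**
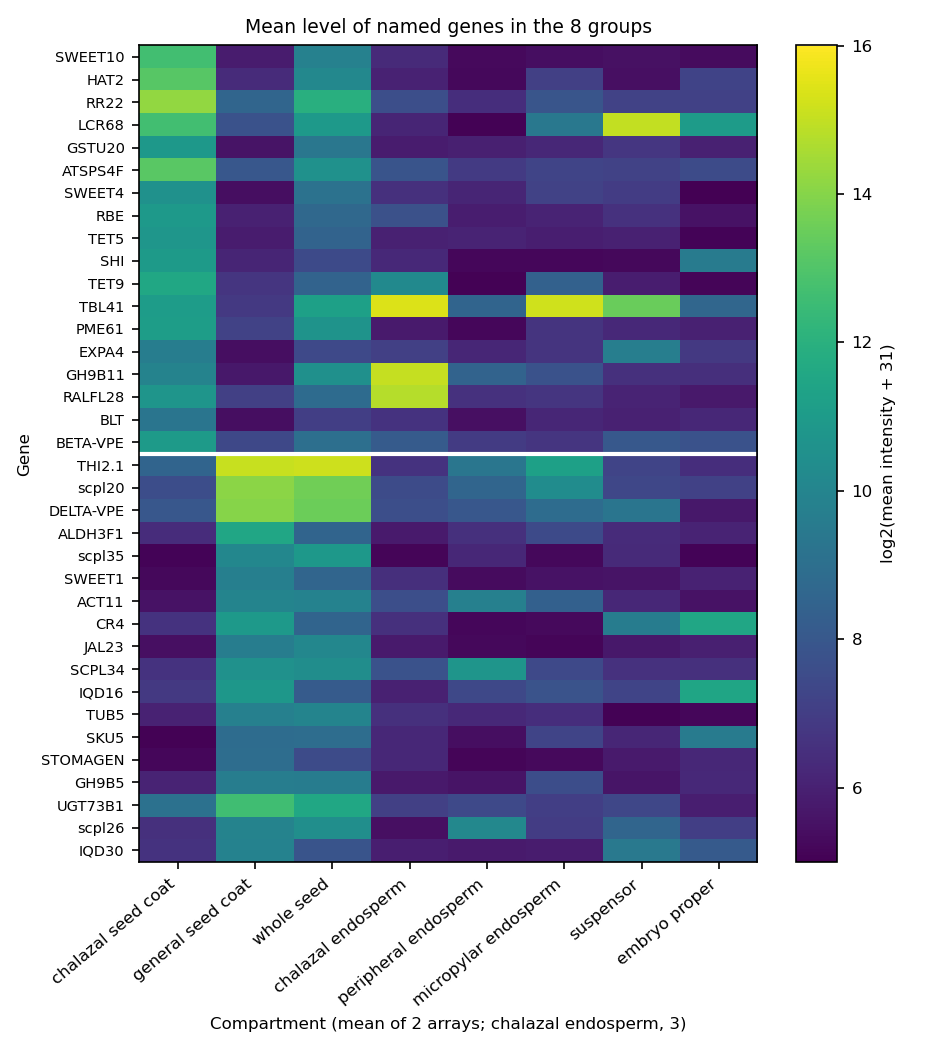
Mean level, as log2(mean intensity + 31), of the named genes plotted by array, in the 8 groups of the series; the white line parts genes higher in chalazal (above) from those higher in general seed coat (below). TBL41, GH9B11 and RALFL28 are brighter in chalazal endosperm than in chalazal seed coat, and CR4 is bright in embryo proper.

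GTR2, a glucosinolate importer, stood at 785 and 656 in chalazal and 19.1 and 167 in general seed coat (at least 5.32-fold, adjusted p = 0.00308), while its relative GTR1 was not called (0.46, adjusted p = 0.818). NPF4.1 was higher in general seed coat, at 1179 and 1795 against 455 and 231 (4.49-fold, adjusted p = 0.0499); the other 9 of the 11 NPF carriers measured were not called. GSTU20, a glutathione transferase, stood at 1464 and 2245 in chalazal and 6.29 and 28.4 in general seed coat (at least 22.4-fold, log2 difference 5.29 ± 0.70, adjusted p = 6.9e-06), and GSTU26 and GSTU16 were higher in general seed coat by at least 4.38-fold and at least 4.32-fold, out of 14 measured. CYP79A2, which makes the precursor of a glucosinolate, was the called member of 23 cytochromes P450, at 1383 and 323 in chalazal and 104 and 92.3 in general seed coat (adjusted p = 0.00754). It measured 30970.4 ± 2457 in chalazal endosperm (SD, n = 3), whose part was not tested. Of 22 beta-glucosidases, 3 were higher in general seed coat and 0 in chalazal (median log2 difference -0.22). BGLU15, which acts on flavonol glycosides, stood at 3128 and 3417 against 326 and 603 (7.37-fold, adjusted p = 1.5e-05), and BGLU29 and BGLU44 were 8.38-fold and 3.59-fold higher. BGLU15 and BGLU44 were brighter still in chalazal endosperm, at 7222 ± 1011 and 17119.9 ± 2167 (SD, n = 3).

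Flavonoid genes, which make the pigments of the coat, were called once among 9 measured, on the general side (median log2 difference -0.86). UGT78D1, which adds rhamnose to flavonols, stood at 33834 and 26598 in general and 6734 and 3846 in the chalazal coat (5.9-fold, log2 difference -2.55 ± 0.79, adjusted p = 0.048). BAN, the reductase that makes the units of tannins, stood at 6369 and 9365 in general and 2309.9 and 2083 in chalazal seed coat and did not pass the test (log2 difference -1.80 ± 0.57, adjusted p = 0.0533). DFR, an earlier enzyme of that path, was at 30964 and 31116 against 17430.0 and 20263 (adjusted p = 0.603), and CHIL, which aids the first steps, at 12716 and 14302 against 6583 and 7023 (adjusted p = 0.318). Both coat parts thus held these transcripts far above the background limit. Among 48 other UDP-glycosyltransferases, UGT73B1, which acts on flavonoids, stood at 5269.9 and 7316 in general and 343 and 695 in the chalazal coat (12.7-fold, adjusted p = 2.8e-04). UGT84A1, which acts on hydroxycinnamates, was at least 3.94-fold higher there and UGT76E11 at least 4.84-fold, and UGT76D1 was higher in chalazal seed coat at 365 and 278 against 8.79 and 45.4 (adjusted p = 0.00131). GSTU20, BGLU15 and UGT73B1 kept their calls in each fit without 1 array. The fits without 1 array ended the call of GTR2 and UGT76D1 without general array 1 (adjusted p up to 0.18 and 0.058 respectively), of NPF4.1, GSTU16, BGLU29, UGT78D1 and UGT84A1 in each of the 4 fits (adjusted p up to 0.405, 0.229, 0.225, 0.345 and 0.22 respectively), of GSTU26, BGLU44 and UGT76E11 without chalazal array 2, general array 1 or general array 2 (adjusted p up to 0.21, 0.305 and 0.367 respectively) and of CYP79A2 without chalazal array 1, general array 1 or general array 2 (adjusted p up to 0.328). Of the settings tried besides, those that ended a call were no offset (GTR2, NPF4.1, GSTU26, GSTU16, CYP79A2, BGLU29, BGLU44, UGT78D1, UGT84A1, UGT76E11 and UGT76D1), a common 75th percentile (NPF4.1 and UGT78D1), quantile normalization (GSTU16 and UGT76E11), a fit on the 4 seed coat arrays alone (CYP79A2) and no intensity trend (BGLU44 and UGT78D1).

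Genes of primary metabolism called on the general side included ATP-citrate lyase, which supplies the acetyl units for fatty acids, wax and flavonoids in the cytosol. ACLA-1 stood at 13155 and 14754 in general and 3359 and 4855 in the chalazal coat (3.45-fold, log2 difference -1.78 ± 0.34, adjusted p = 9.2e-04), ACLB-1 at 3098 and 3254 against 1157 and 707 (3.51-fold, adjusted p = 0.0425) and ACLA-2 at 423 and 284 against 102 and 18.4 (adjusted p = 0.0351). Both subunits of the enzyme were thus higher in general seed coat, and ACLA-3, at log2 difference -2.03 ± 0.69, adjusted p = 0.0787, was not called. No other gene of the 16 of citrate and succinate metabolism was called (median log2 difference -0.36). Of 8 aldehyde dehydrogenases, 3 were higher in general seed coat and 0 in chalazal, and all 8 had a difference below 0 (median log2 difference -1.09). ALDH3F1 stood at 2851 and 2869.8 in general and 56.3 and 50.6 in the chalazal coat (at least 35.4-fold, log2 difference -5.10 ± 0.72, adjusted p = 1.6e-05), and averaged 345 ± 10.4 in whole seed (SD, n = 2). ALDH2C4, which makes ferulate and sinapate, was at 375 and 433 against 6.77 and 34.4 (adjusted p = 0.00234), and ALDH11A3 at 3345 and 2087 against 702 and 412 (4.91-fold, adjusted p = 0.0241).

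Of 22 nuclear photosynthesis genes, 4 were higher in general seed coat and 0 in chalazal (median log2 difference -0.94). Of 69 plastid genome genes, 3 were called higher in general seed coat, or 4.35%, no more than the 4.93% of all genes with a name. Their differences still leaned to general seed coat, with a median of -0.72 against -0.05 for all probe sets. All but 3 of the 69 lay at or below 0. An unadjusted p of limma below 0.05 was reached by 30 of the 69, against 17.2% of all probe sets. PSAN, of photosystem I, measured 422 and 190.2 in general and 14.1 and 6.15, under the limit, in the chalazal coat (at least 3.5-fold, adjusted p = 2.3e-04). LHCB4.3, a light-harvesting protein, was at 736 and 726 against 77.4 and 148 (6.83-fold, adjusted p = 0.00518), PSBY at 832 and 778 against 243 and 299 (adjusted p = 0.0299) and PSAE-1 at 467 and 168 against 84.0 and 60.1 (adjusted p = 0.0475). The plastid genes petG, atpH and rbcL were 3.33-fold, 2.14-fold and 2.07-fold higher. These genes were brighter in peripheral endosperm than in either coat part, for instance PSAN at 6260.1 ± 174 and PSBY at 9039 ± 1956 (SD, n = 2), and the part of that neighbouring tissue was not tested. ACLA-1, ALDH3F1 and PSAN kept their calls when arrays were left out singly. When arrays were left out singly, calls were lost for ACLB-1, ALDH11A3, PSBY, petG and atpH in each of the 4 fits (adjusted p up to 0.358, 0.262, 0.207, 0.145 and 0.463 respectively), for ACLA-2 and rbcL without chalazal array 2, general array 1 or general array 2 (adjusted p up to 0.436 and 0.582 respectively), for ALDH2C4 without chalazal array 1 (adjusted p = 0.0664), for LHCB4.3 without chalazal array 1, general array 1 or general array 2 (adjusted p up to 0.105) and for PSAE-1 without chalazal array 1, chalazal array 2 or general array 1 (adjusted p up to 0.568). Calls also lapsed with no offset (ACLB-1, ACLA-2, ALDH2C4, ALDH11A3, atpH and rbcL), no intensity trend (ACLB-1, PSBY, PSAE-1, petG, atpH and rbcL), quantile normalization (ACLA-2 and PSAE-1), a fit on the 4 seed coat arrays alone (ACLA-2, PSAE-1, atpH and rbcL), an offset 4 times as large (PSAE-1), a common 75th percentile (PSAE-1, atpH and rbcL) and the replicate block (rbcL).

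Of 7 tubulins, the subunits of microtubules, 3 were higher in general seed coat and 0 in chalazal (median log2 difference -1.16). TUB5 stood at 945 and 747 in general and 8.51 and 62.0 in the chalazal coat (at least 10.4-fold, log2 difference -3.85 ± 0.69, adjusted p = 4.0e-04), TUB1 at 539.5 and 444 against 41.3 and 43.3 (adjusted p = 0.0122) and TUB9 at 2264 and 2538 against 586 and 517 (4.36-fold, adjusted p = 0.00917). TUA6 and TUB7 did not pass the test: TUA6 was at -0.21 and TUB7 at 0.33 on the log2 scale. ACT11, an actin of reproductive tissue, stood at 944 and 965 in general and 10.7 and 21.5 in the chalazal coat (at least 11.8-fold, adjusted p = 1.3e-05). Of 15 IQD proteins, scaffolds that bind calmodulin and microtubules, IQD16 was at 1518 and 2072 in general and 101 and 67.1 in the chalazal coat (at least 18-fold, adjusted p = 4.7e-05) and IQD30 at 806 and 1009 against 100.1 and 30.7 (adjusted p = 0.00111). IQD23 was higher in chalazal seed coat, at 169.8 and 99.6 against 6.55 and 8.05 (adjusted p = 0.0254). Of 10 actin-binding NET proteins, NET1A was at least 5.09-fold higher in general and NET1C 5.17-fold higher in chalazal seed coat, NET1C with 6694 ± 1095 in chalazal endosperm (SD, n = 3). TUB5, ACT11, IQD16 and IQD30 kept their calls in all 4 fits without 1 array. In fits without 1 array the call ended for TUB1, TUB9, IQD23 and NET1A in each of the 4 fits (adjusted p up to 0.112, 0.0967, 0.233 and 0.309 respectively) and for NET1C without chalazal array 2 or general array 2 (adjusted p up to 0.0665). Other settings that ended a call were no offset (TUB1, IQD30 and NET1A), a fit on the 4 seed coat arrays alone (IQD23 and NET1A) and quantile normalization (NET1A).

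Most of the largest differences belonged to genes known here by locus number alone, for which no role is given. In chalazal seed coat AT3G10590 led, at 41054 and 54505 against 8.42 and 6.24, at least 584-fold higher (log2 difference 10.27 ± 0.52, adjusted p = 3.3e-13). AT1G12180 was at 48384 and 66112 against 449.6 and 82.8 (293-fold) and AT3G22240 at 53186 and 80228 against 449.8 and 422 (150-fold). AT4G22050, AT1G20680, AT4G22400, AT3G13630, AT4G33550, AT3G14780, AT3G11870, AT5G24580, AT1G51000, AT4G29620, AT4G29640 and AT5G40960 completed the 15 largest differences, with log2 differences from 7.02 to 9.31. Only called genes whose arrays did not overlap between the groups were ranked on either side. That each was higher on both chalazal arrays than on either general array was thus set by the choice. In general seed coat AT1G11590 led, at 13105 and 8707 against 47.3 and 3.96 (at least 132-fold, log2 difference -7.68 ± 0.96, adjusted p = 2.4e-06), followed by AT1G49800 at 10961 and 13239 against 75.7 and 22.0 (at least 141-fold). AT4G15750 stood at 72967 and 40801 against 704 and 451 (96.9-fold, adjusted p = 1.2e-08), and AT5G47350 stood at 38964 and 33082 against 502 and 367 (83.6-fold). AT1G29660, AT5G62210, AT4G03930, AT1G12010, AT4G19380, AT3G05600, AT2G41990 and AT3G28960, with the named THI2.1, scpl20 and DELTA-VPE, made up the 15, with differences from -5.96 to -6.42 for those 8. AT3G05600 was brighter in suspensor, at 24768 ± 3767 (SD, n = 2), than in general seed coat. All 30 genes kept their calls with each of the 4 arrays left out in turn. Of the 1587 calls, 686 name a gene by locus number alone and 757 name several genes or none here.

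**Figure D3:**
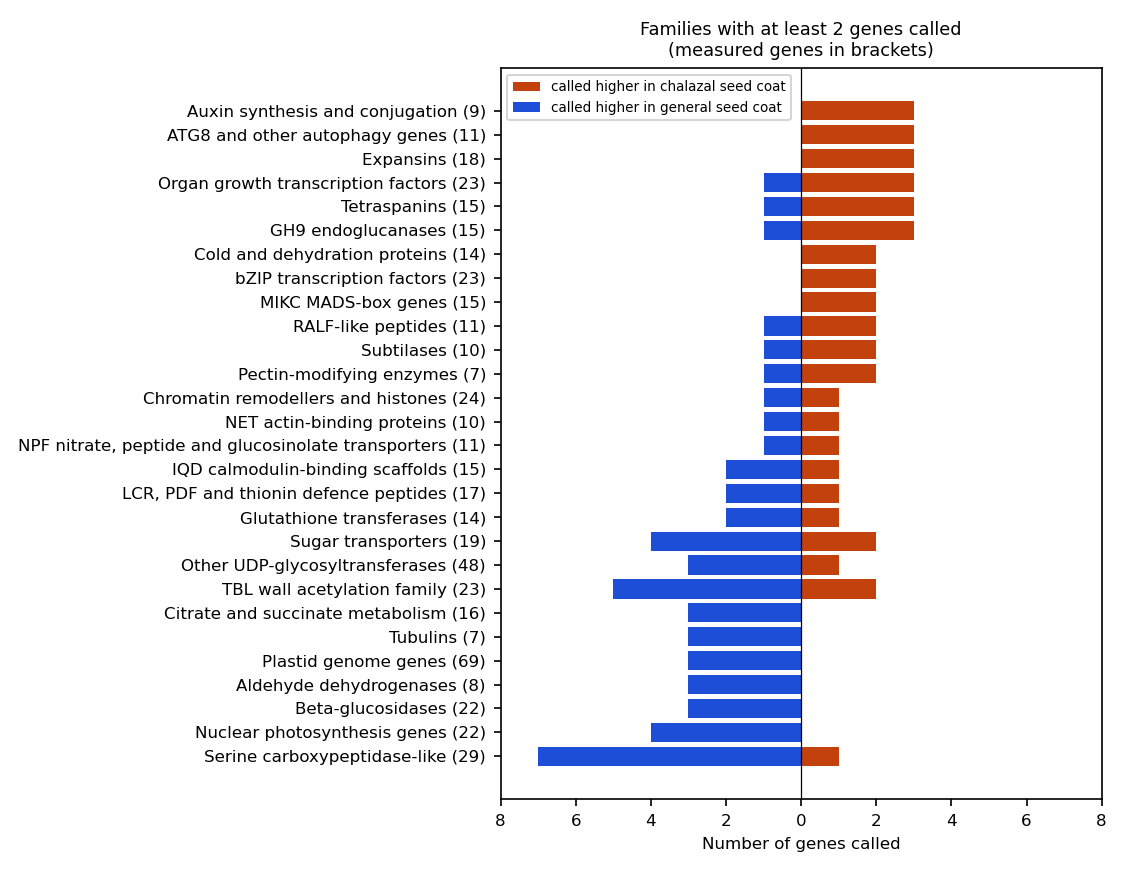
Number of genes called higher in chalazal (right) and in general seed coat (left) in the 28 families with at least 2 calls, with the number of measured genes in brackets. Auxin synthesis, autophagy and expansins have calls on the chalazal side alone, and tubulins, aldehyde dehydrogenases, beta-glucosidases and nuclear photosynthesis genes on the general side alone. The 3 plastid genome calls of 69 are no more than the share of all genes with a name, though all but 3 of the 69 differences lie at or below 0.

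Chalazal endosperm lies next to the chalazal coat, and some of the chalazal calls were brighter there. For 104 of the 783 probe sets called higher in chalazal seed coat (13.3%), the mean in chalazal endosperm was over 10 times that in chalazal seed coat, as it was for 1347 of all 22746 probe sets (5.92%). On 103 of these 104 the first chalazal seed coat array was above the second, with a median log2 difference of 1.39 between the arrays. They were 15.7% of the 664 probe sets over 10 times brighter in chalazal endosperm than in either coat part. Over all 664 the median difference between the chalazal arrays was 0.71, against -0.01 for all probe sets. For the 582 called probe sets that were no brighter in chalazal endosperm, the first array was above the second on 244, with a median of -0.09. Without the first chalazal array, 22 of the 104 kept their call and 365 of the other 679 did; without the second, 93 and 348 did. The named genes among the 104 were TBL41, GH9B11, RALFL28, SBT4.13, AGL33, SK16, CYP79A2, GH9B17 and LEA27. AGL33, a type I MADS-box gene of the endosperm, stood at 686 and 542 in chalazal and 11.7 and 44.5 in general seed coat (adjusted p = 3.5e-04), and at 11862 ± 1959.8 in chalazal endosperm (SD, n = 3). SK16, an SKP1-like protein, stood at 2501 and 655 against 167 and 51.6 (adjusted p = 3.4e-05) and at 29199 ± 1686 in chalazal endosperm. LEA27, a late embryogenesis abundant protein, stood at 2585 and 1182 against 575 and 361 (adjusted p = 0.00626) and at 29587 ± 4803 there. The part of chalazal endosperm in these calls was not tested. AGL33 and SK16 kept their calls without any 1 array. The call was lost with 1 array left out for LEA27 without chalazal array 1 or general array 2 (adjusted p up to 0.212). RR22, HAT2, SWEET10, ATSPS4F, RBE, SHI and TET5 averaged between 34.0 and 204 in chalazal endosperm. Other leading chalazal genes held more there, such as AT3G10590 at 6182, AT4G29640 at 3777 and AT1G20680 at 3287. Each of these lay below its mean in chalazal seed coat.

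**Figure D4:**
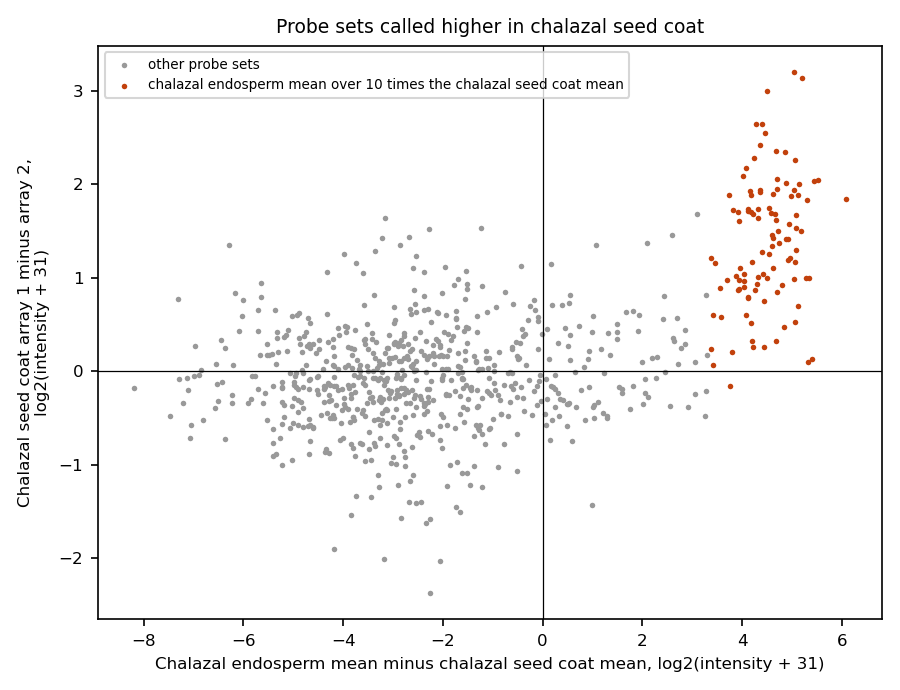
Each point is 1 of the 783 probe sets called higher in chalazal seed coat; the x axis is chalazal endosperm minus chalazal seed coat and the y axis is chalazal seed coat array 1 minus array 2, both as log2(intensity + 31). The 104 probe sets over 10 times brighter in chalazal endosperm lie above 0 on the y axis in all but 1 case.

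Seen across the 7 captured compartments, the coat part in which a probe set was called had the highest mean for 515 of the 783 chalazal calls (65.8%) and 531 of the 804 general calls (66.0%). That it stood above the other coat part was set by the call. Chalazal endosperm was above the chalazal coat for 201 of its calls. For the general calls, suspensor was above the general coat for 150, micropylar endosperm for 129, peripheral endosperm for 120, embryo proper for 103 and chalazal endosperm for 86. The matching shares of all probe sets were not counted, so these counts are not read as particular to a coat part. Whole seed stood below the calling coat part by a median of 1.80 on the log2 scale for chalazal calls and by 0.55 for general calls.

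Marker genes were looked up by their listed symbol alone, and few were found. Measured means found under that symbol, so a gene annotated under another symbol was missed. Of 20 seed coat markers 3 were measured, DFR, BAN and INO, and their summed level was 19793 and 22418 in chalazal against 38026 and 41201 in general seed coat, with INO called. Of 15 phloem markers SWEET11 and CLE41 were measured and neither was above the limit on any of the 4 arrays. None of 12 xylem markers was found by its listed symbol. These lists could therefore not check the chalazal label. Of 24 endosperm markers 12 were measured, with AGL33 called, and their sum was 1884 and 1231 in chalazal against 1367 and 757 in general seed coat. The higher chalazal sum rested on AGL33 alone, at 686 and 542 in chalazal against 11.7 and 44.5 in general seed coat. Of the other 11, differences ran from -1.10 to 1.11. Embryo markers (3 of 19 found by symbol) summed to 322 and 468 against 205 and 342. Pollen markers (2 of 10) summed to 60.0 and 103.3 against 154 and 178. Of the markers found, 0 were called in either list. CR4, listed among the embryo markers as ACR4, was missed by that symbol and was called higher in general seed coat, as given above.

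No gene of 18 families, with 192 measured genes, was called by limma at an adjusted p below 0.05. An unadjusted p below 0.05 was reached by 28 of the 192 (14.6%), against 17.2% of all probe sets. Single families differed: it was reached by 5 of 8 CML and 5 of 15 ESCRT and sorting genes. In the CHX, LSM, editing PPR and myosin families it was reached by 0. Of the ESCRT and sorting genes 14 of 15 had a difference above 0 (median 0.56), and of 8 CSL genes 0 did (median -0.68). Cell division (25 measured), DNA repair (20), ESCRT and sorting proteins (15), TRM proteins (14), editing PPR proteins (13), RNA polymerase subunits (12) and ubiquitin-specific proteases (12) were the largest of them. The others were the Aux/IAA repressors, the CSL wall glycan synthases and the PRA1, glutamate receptor-like, CML, CHX, WRKY, CLE, exocyst, LSM and myosin families, of 5 to 11 genes. Chromatin genes gave 1 call on each side of 24. CHR23, a chromatin remodeller, was 3.42-fold higher in chalazal seed coat, and 3xHMG-box2, which binds mitotic chromosomes, 4.20-fold higher in general. CHR23 measured 10346 ± 1154 in chalazal endosperm (SD, n = 3), above either coat part. In embryo proper 3xHMG-box2 measured 21039 ± 1102 and in peripheral endosperm 10314 ± 91.7 (SD, n = 2). Its general seed coat arrays read 1411 and 478, and the part of these other tissues was not tested. Simulated data were drawn with the spread of the 17-array fit. Differences of 1, 2, 3 and 4 on the log2 scale were called there in 2%, 24%, 78% and 94% of 50 probe sets each. Few probe sets were changed there, all among the brighter ones, and 103 were called against 1587 here, so the adjusted threshold was stricter. These shares therefore do not carry over to the real comparison, where the smallest called difference was 1.05. With 1 array left out the call was lost for CHR23 without chalazal array 2 or general array 1 (adjusted p up to 0.103) and for 3xHMG-box2 without chalazal array 1 or general array 1 (adjusted p up to 0.27). Among the other settings, calls ended with a fit on the 4 seed coat arrays alone (3xHMG-box2).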

How the data were processed

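Per the labels, RNA of laser-captured compartments was amplified and hybridised to ATH1 arrays. Values are intensities on a linear scale that the authors deposited as 1 table of 17 arrays; the submitters' processing notes name GCOS, and no further step is given in the sources used here. The 2%-trimmed mean of every array was about 500.05, so the arrays had been scaled alike. No 2 arrays were identical. After leaving out 64 control probe sets, log2(intensity + 31) was fitted with limma 3.58.1 (R 4.3.3): 1 mean per group over all 17 arrays, 9 residual degrees of freedom, moderated variances with an intensity trend, two-sided, adjusted by Benjamini-Hochberg over 22746 probe sets. The number of arrays limits the precision.

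Names came from the platform annotation, updated to RefSeq TAIR10.1: 13513 probe sets name 1 gene, 13436 of these matched, 503 name several and 8730 are unnamed here. A gene was read from its brightest probe set. Families, 57 with at least 5 measured genes, were drawn by symbol. Named genes were the 15 largest differences a side, up to 4 called genes a family and side, and marker genes. The 15 were ranked among called genes without overlap between the groups whose brighter group had a mean above the median of all probe sets. Further members of a family and genes in no family were added after their values were seen. The members and lists were chosen with earlier results of these data known, and the family patterns were narrowed once the annotation had shown wrong matches. The fit was tested on simulated data: of 103 calls among 22746 probe sets, 4 were false. Alternatives were the offset, the normalization, a filter on dim probe sets, the trend, array weights, the 4 arrays alone, the replicate block and each array left out.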

Additional observations from a re-analysis of the deposited data

How the results depend on the processing

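The count of 1587 probe sets called, 783 higher in the chalazal coat and 804 in the general coat, moved by over 1.5 times under these alternatives. With no offset 835 were called (416 and 419), and with array weights 2606 (1231 and 1375). With 1 of the 4 arrays left out, 787 to 883 were called (374 to 474 higher in chalazal, 409 to 444 in general); the group reduced to 1 array was then taken to vary like the others. The other settings gave 1442 to 2084 calls. Of 169 called genes followed through the settings, no probe set changed direction under any alternative. They were the 142 called genes with a name and, from the 15 largest differences a side, genes known by locus number alone. The latter were chosen for the size of their difference. All 169 were chosen because they were called, so a kept direction was largely set by that choice. Between 47.2% and 53.7% of calls were higher in chalazal seed coat under every setting. Of those 169 genes, 79 kept their call in all 4 fits without 1 array and 40 in none, and 70 lost it with no offset, 24 on the 4 seed coat arrays alone, 20 with no intensity trend and 14 with quantile normalization. Replicate numbers recur across groups, but same-numbered chalazal and general arrays did not deviate together (correlation of deviations 0.02, and -0.09 to 0.09 over all pairs of groups), so they were not read as pairs; the replicate block gave 1625 calls (790 and 835), and 3 of the 169 genes lost their call, rbcL, ATSBT5.2 and ADPG1. The cause of these shifts was not tested. Leaving out 1 array both lowered the number of arrays and removed the values of that array. Where a dim group lies under the background limit its level is only bounded. With 2 arrays a group, differences below about 2 on the log2 scale were mostly not called in simulated data. Fewer probe sets were changed there than were called here, so that share does not carry over to the real comparison.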

Other observations

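The genes named here were chosen after their values were seen, and those without a family count belong to none of the families measured. JAL23 and JAL34 are jacalin-related lectins, which bind sugars. In general seed coat JAL23 stood at 701 and 876 against 20.8 and 5.08 in chalazal (at least 9.68-fold, adjusted p = 3.6e-05) and JAL34 at 901 and 801 against 81.8 and 94.2 (adjusted p = 0.00874). PRXR1, a peroxidase, was also higher there, at 10261 and 13361 against 3584 and 3178 (3.47-fold, adjusted p = 0.0189). MSRB5, the called member of 5 methionine sulfoxide reductases, which repair oxidised methionine, was at 2443 and 3602 against 266 and 374 (9.4-fold, adjusted p = 8.5e-04), and MGL, which breaks methionine down, at 238 and 642 against 4.76 and 3.38 (adjusted p = 9.9e-04). LPR1, a multicopper oxidase of the root's response to low phosphate, was at 2759 and 2395 against 234 and 424 (8.15-fold, adjusted p = 0.00288). For each of these genes both general values lay above both chalazal ones, but the groups did not overlap for 51% of all probe sets. In chalazal seed coat MT1C, a metallothionein, was at 1030.5 and 546 against 24.5 and 112 in general (adjusted p = 0.00387), SGP1, a small G protein, at 1000.2 and 1224 against 98.2 and 67.0 (at least 13-fold, adjusted p = 5.4e-04), and TIL, a lipocalin of heat and cold tolerance, at 2163 and 2952 against 1060.2 and 763 (2.81-fold, adjusted p = 0.0284). COR27, called with LEA27 among 14 cold and dehydration genes, was at 392 and 271 against 80.6 and 59.2 (adjusted p = 0.0303), and Hsp70-2, a heat shock chaperone and the called one of 14 chaperone genes, at 33296 and 37298 against 16161 and 15541 (2.22-fold, adjusted p = 0.012). Chalazal endosperm held 67598 ± 12921 of Hsp70-2 and 5956 ± 1787 of TIL (SD, n = 3), above either coat part. JAL23, MSRB5 and SGP1 kept their calls with every array left out in turn. Calls were lost with 1 array left out for JAL34, PRXR1, TIL, COR27 and Hsp70-2 in each of the 4 fits (adjusted p up to 0.084, 0.202, 0.274, 0.256 and 0.128 respectively), for MGL without general array 2 (adjusted p = 0.0537), for LPR1 without chalazal array 1 (adjusted p = 0.0774) and for MT1C without chalazal array 1 or general array 1 (adjusted p up to 0.12). Of the settings tried besides, those that ended a call were no offset (JAL34, PRXR1, LPR1, MT1C and TIL), no intensity trend (TIL and Hsp70-2) and a fit on the 4 seed coat arrays alone (COR27). A gene with several probe sets was read from the brightest. For GAT1_2.1 that set was called (-2.21, adjusted p = 0.0233) and its dimmer set was not (-1.28, adjusted p = 0.331). The call was lost for GAT1_2.1 without chalazal array 2, general array 1 or general array 2 (adjusted p up to 0.463). Calls also lapsed with no offset (GAT1_2.1) and a fit on the 4 seed coat arrays alone (GAT1_2.1). For 2A6 the dimmer set was called (1.93, adjusted p = 0.0173) and the brighter was not (-0.36, adjusted p = 0.877), and that call was lost in each of the 4 fits without 1 array (adjusted p from 0.0654 to 0.135).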
